A study of Mus musculus with 2 samples.

Results

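The 9 miRNA genes Mir15a, Mir16-1, Mir15b, Mir16-2, Mir322, Mir503, Mir351, Mir542 and Mir450b were followed in embryonic mouse forebrain. They were chosen by name, as the miR-15/16 genes of the Dleu2 and Smc4 loci and 5 hairpins of the Mir322 cluster on the X chromosome, and all 9 of them were among the 1973 gene rows of each library. The tissue was forebrain of strain B6NCrl at day 11.5 of embryonic life, from healthy embryos of both sexes, with no treatment named in the labels. The series has 1 group with 2 libraries, made from pools of 109 embryos (replicate 1) and 88 embryos (replicate 2), so every value is an average over many animals and no condition was compared. MicroRNA-seq reads short RNA of the size of mature miRNAs. Levels are CPM, the counts on the strand of the gene per 1000000 such counts over all miRNA genes. The libraries held 1281201 (replicate 1) and 1297647 (replicate 2) of these counts, and ± is the SD over both libraries (n = 2). The labels call the libraries biological replicates but give both pools the same donor entry, so the spread between them may be in part technical. In a tissue pool, fewer cells that hold a miRNA and less of it per cell cannot be told apart.

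A miRNA gene is transcribed as part of a longer RNA, and its hairpin is cut by Drosha and Dicer into a duplex of 2 arms, named 5p and 3p, of which mostly 1 is loaded into Argonaute. The loaded arm finds messenger RNAs chiefly through its seed, the bases 2 to 8 from its 5′ end, so miRNAs with the same seed share most targets wherever their genes lie. The miR-15/16 family is known for repressing D-type and E-type cyclins and the survival factor Bcl2, and its loss from the Dleu2 locus is known from chronic lymphocytic leukaemia. Smc4, the other host, encodes a condensin subunit of dividing cells. The Mir322 cluster is known from muscle differentiation and from cells that leave the cell cycle.

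Mature arms of all 9 genes were found in RefSeq (GRCm38.p6), and they are shown because the seeds divide the genes differently from the loci. Capitals mark the seed. The 5p arms of 5 of the 9 genes have the seed AGCAGCA, together with Mir195a and Mir497 of chromosome 11:
miR-15a-5p: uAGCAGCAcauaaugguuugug
miR-15b-5p: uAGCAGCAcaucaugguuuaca
miR-16-5p: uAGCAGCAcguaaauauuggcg
miR-322-5p: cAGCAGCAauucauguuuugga
miR-195a-5p: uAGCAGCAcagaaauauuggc
miR-497a-5p: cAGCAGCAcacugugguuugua

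The arm of Mir503 differs from that seed in its last base and has a seed that was found in no other gene of the RefSeq table:
miR-503-5p: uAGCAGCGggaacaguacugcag

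Mir351, though it lies beside Mir503, carries the seed of the miR-125 family:
miR-351-5p: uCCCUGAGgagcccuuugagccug
miR-125a-5p: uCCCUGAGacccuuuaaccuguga
miR-125b-5p: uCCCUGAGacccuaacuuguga

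The seeds of miR-542-3p and miR-450b-5p were likewise found in no other gene of that table:
miR-542-3p: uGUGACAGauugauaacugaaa
miR-450b-5p: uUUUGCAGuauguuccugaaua

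With positions counted from 1 at the 5′ end, miR-15a-5p and miR-15b-5p were identical at 18 of 22 positions and differed by A12C, G20A, U21C and G22A. The arm of miR-16-5p stood closer to miR-195a-5p, with 19 of 21 positions identical and the differences G10A and U11G, than to its neighbour miR-15a-5p, with 16 of 22. miR-322-5p shared 16 of 22 positions with miR-15b-5p, 15 of 22 with miR-15a-5p and 12 of 22 with miR-16-5p. miR-351-5p was identical to miR-125a-5p at the first 8 bases and, compared position by position without gaps, at 10 of 24.

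Both Mir16 genes give the same 5p arm, which bears on every value of these genes below. In 35-base windows of the 2 hairpins, capitals mark the 23 bases they share:
Mir16-1: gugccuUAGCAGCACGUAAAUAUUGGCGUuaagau
Mir16-2: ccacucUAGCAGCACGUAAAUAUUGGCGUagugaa

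A read inside the shared 23 bases fits both loci, and reads that fit several places were counted in a row of their own (1165381 and 1001079 reads) and not for any gene. The counts of Mir16-1 and Mir16-2 therefore come from reads that reach past this stretch or from the 3p arms, which differ between the loci:
miR-16-1-3p: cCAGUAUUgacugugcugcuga
miR-16-2-3p: aCCAAUAUuauugugcugcuuu

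Of 17 distinct arms of the 9 genes, miR-16-5p was the only one found whole in another of the 2202 miRNA hairpins of GENCODE M21. Mir450b shared at most 19 bases with another hairpin (Mir450-1), and Mir15a, Mir15b, Mir322, Mir503, Mir351 and Mir542 at most 13. The levels of Mir16-1 and Mir16-2 can be too low by an unknown amount. For the others no copy was found among miRNA genes, and the rest of the genome was not searched. The counts do not separate the arms of a hairpin.

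In the build mm10, Mir15a (ENSMUSG00000093007) lies on the minus strand of chromosome 14 from 61632027 to 61632110, and Mir16-1 (ENSMUSG00000092995) from 61631880 to 61631972, 54 bases further along the transcript. All 8 transcripts of the noncoding gene Dleu2 that span them have an intron there, and 1 other transcript of Dleu2 has an exon that overlaps Mir16-1. Mir15b (ENSMUSG00000065580) and Mir16-2 (ENSMUSG00000065606) lie on the plus strand of chromosome 3, from 69009772 to 69009835 and from 69009902 to 69009996, in an intron of all 5 spanning transcripts of Smc4. On the minus strand of the X chromosome follow Mir322 (ENSMUSG00000065418, 53054255 to 53054349), Mir503 (ENSMUSG00000076122, 53053984 to 53054054) and Mir351 (ENSMUSG00000065503, 53053255 to 53053353). Mir542 (ENSMUSG00000076140, 53049403 to 53049487) and Mir450b (ENSMUSG00000076050, 53047997 to 53048078) lie further along. GENCODE M21 has no gene that overlaps these 5 hairpins, so their shared transcript is taken from what is known of the cluster.

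All 9 genes reached 2 CPM or more in both libraries, as did 424 of the 1973 genes (21.5%). Together the 9 genes took 4.02% of the counts in replicate 1 (95% exact Clopper-Pearson interval 3.98 to 4.05%) and 3.77% in replicate 2 (3.73 to 3.80%). Of these counts, 45.7% ± 1.25 belonged to Mir322 alone and 23.8% ± 0.617 to Mir15a. The Mir322 cluster held 2.08% ± 0.0872 of all counts, the Dleu2 pair 1.27% ± 0.0555 and the Smc4 pair 0.546% ± 0.0356. The Dleu2 and Smc4 pairs lack the reads that fit both loci, so all these shares are of counted reads only. Each level was far above the limit of 3 counts, which is 2.34 CPM in replicate 1 and 2.31 CPM in replicate 2. Intervals and this limit cover counting error only, since reads copied by PCR are not independent molecules.

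Mir322 reached 17996 CPM (replicate 1) and 17532 CPM (replicate 2), which placed it 11th and 12th among all miRNA genes. Its neighbour Mir503, with the variant seed, had 734 and 599 CPM. Mir351, of the miR-125 seed, had 1836 and 1269 CPM. These 3 hairpins lie within about a kilobase, and the first of them stood far above the others in both libraries. Mir542, known for targeting the mitotic survival gene Birc5 with its 3p arm, had 596 and 580 CPM. Mir450b, the last hairpin, had 247 and 196 CPM and was the lowest of the 9 genes in both libraries.

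In the Dleu2 intron, Mir15a stood at 9376 CPM (replicate 1) and 9117 CPM (replicate 2), and Mir16-1 had 3681 and 3156 CPM. In the Smc4 intron, Mir15b had 4933 and 4459 CPM, and Mir16-2 had 774 and 744 CPM. At both loci the miR-15 hairpin was thus the higher one in both libraries, with the reads of miR-16-5p that fit both loci left out. The Dleu2 gene was above its Smc4 relative in both cases. Mir15a, which shares no whole arm with Mir15b, had 1.97 ± 0.102 times its counts, and Mir16-1 had 4.50 ± 0.364 times those of Mir16-2. The second ratio is one of locus-specific reads only.

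**Figure D1:**
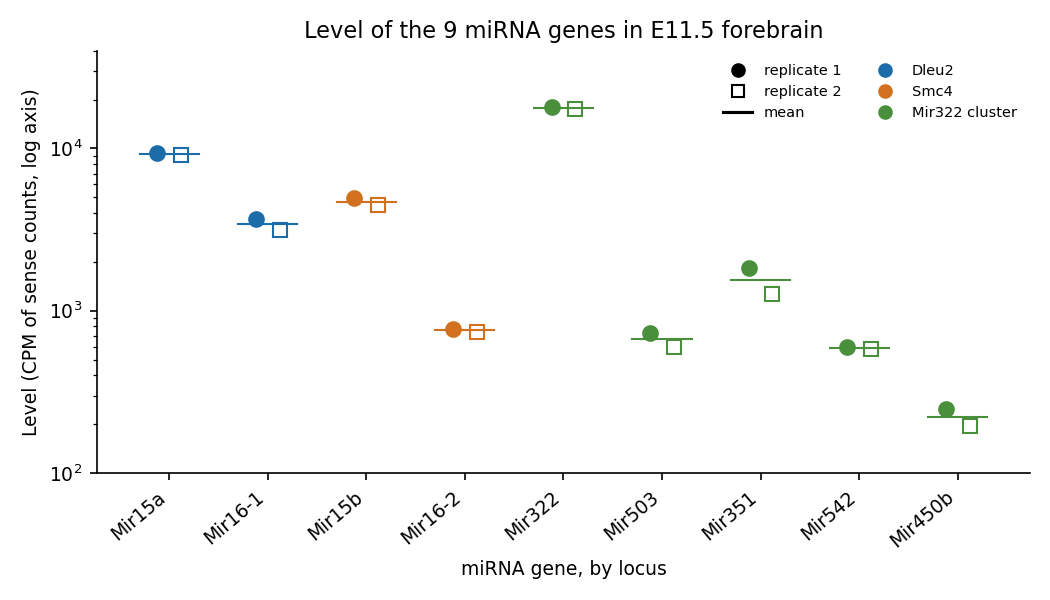
Level of each of the 9 genes in CPM (log axis) in replicate 1 (filled circles) and replicate 2 (open squares), with the mean as a line and colours for the 3 loci. Mir322 stands at 17996 and 17532 CPM and Mir450b at 247 and 196 CPM, while the libraries lie furthest apart for Mir351.

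Ordered by mean level, the genes ran Mir322 (17764 ± 328 CPM), Mir15a (9246 ± 184), Mir15b (4696 ± 335), Mir16-1 (3418 ± 371), Mir351 (1553 ± 401), Mir16-2 (759 ± 21.1), Mir503 (666 ± 95.4), Mir542 (588 ± 11.3) and Mir450b (222 ± 36.5). The order was the same in both libraries, and none of the 8 pairs of neighbours overlapped in range. For 2 of these pairs the difference of the means was nonetheless below the SD of Mir503: Mir16-2 and Mir503 differed by 93.1 CPM and Mir503 and Mir542 by 78.7 CPM. A miRNA read covers a whole mature arm, so levels were not divided by length. Per 100 bases of hairpin, Mir503 (938 CPM) would stand above Mir16-2 (799 CPM), with the other 7 genes at their places. With 2 libraries no permutation test of a difference between genes can pass 0.05.

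Hairpins that lie on 1 transcript are transcribed together, and the ratio of their counts within a library needs no scaling between libraries. Mir15a exceeded Mir16-1 by 2.55-fold in replicate 1 and 2.89-fold in replicate 2, and Mir15b exceeded Mir16-2 by 6.37-fold and 5.99-fold. The log2 ratio was 1.44 ± 0.13 at Dleu2 and 2.63 ± 0.06 at Smc4, apart in both libraries, and both ratios lack the miR-16-5p reads that fit both loci. How these reads divide between the loci cannot be read from gene counts.

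Along the Mir322 cluster the levels were spread more widely, and Mir322 supplied 85.5% ± 2.01 of the counts. Mir322 exceeded Mir351 by 9.80-fold in replicate 1 and 13.8-fold in replicate 2, Mir503 by 24.5-fold and 29.3-fold, and Mir450b by 72.7-fold and 89.6-fold. Against Mir542 the ratio was 30.2-fold and 30.3-fold and did not move between libraries beyond counting error, with log2 intervals of 4.81 to 5.02 and 4.81 to 5.03. The ratio of Mir351 to Mir542 did move, from a log2 value of 1.62 (1.51 to 1.74) in replicate 1 to 1.13 (1.01 to 1.26) in replicate 2. Of the 12 pairs of hairpins within a locus, 5 had intervals that lay apart between the libraries. These were Mir15a with Mir16-1, Mir322 with Mir503, and Mir351 with each of Mir322, Mir503 and Mir542. The intervals cover counting error only, and pairs that share a hairpin are not independent. No share was taken over pairs of other genes, so this count has no background. Levels did not fall steadily along the cluster, since Mir503 had 0.400 times (replicate 1) and 0.472 times (replicate 2) the counts of Mir351, the hairpin after it. Between loci, the cluster held 1.64 times the counts of the Dleu2 pair in both libraries, and the Dleu2 pair held 2.32 ± 0.050 times those of the Smc4 pair. Both pairs lack the miR-16-5p reads that fit both loci.

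**Figure D2:**
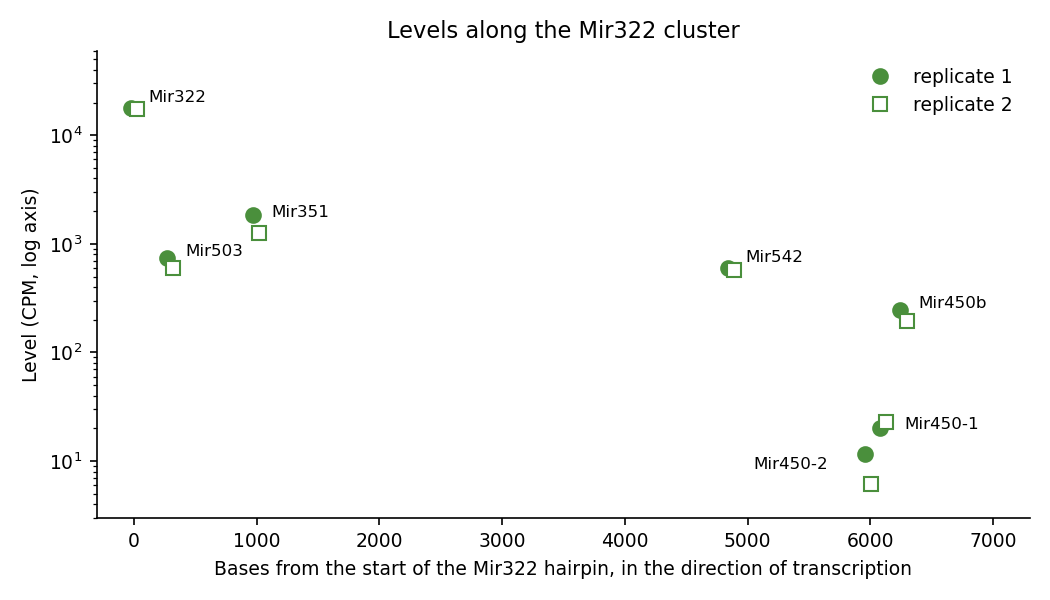
Level in CPM (log axis) of the hairpins of the Mir322 cluster against their distance in bases from the start of Mir322, in replicate 1 (filled circles) and replicate 2 (open squares). Mir322 stands at 17764 ± 328 CPM, and at the far end Mir450-2 and Mir450-1, whose counts leave out reads that fit both, stand below Mir450b.

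The cluster has 2 further hairpins, Mir450-2 and Mir450-1, which lie between Mir542 and Mir450b. Mir450-2 had 11.7 and 6.17 CPM and Mir450-1 had 20.3 and 23.1 CPM. These genes share 25 bases, miR-450a-5p among them, so as with Mir16 their levels can be too low by an unknown amount. Of the cluster they made up 41 of 27469 counts in replicate 1 and 38 of 26218 in replicate 2.

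Other genes of the AGCAGCA seed added little. RefSeq lists 11 genes with it, of which 10 had a row, and their sum was 36360 ± 1245 CPM. Mir322 supplied 48.9% ± 0.772 of that sum, Mir15a 25.4% ± 0.366, Mir15b 12.9% ± 0.480, Mir16-1 9.39% ± 0.700 and Mir16-2 2.09% ± 0.0135. That sum lacks the reads of the arm shared by Mir16-1 and Mir16-2 that fit both loci. The shares are therefore of counted reads only. Those of Mir16-1 and Mir16-2 can be too low, and those of the other genes too high, by an unknown amount. Mir195a, known from the heart, where it restrains the division of muscle cells, had 481 and 472 CPM, or 1.31% ± 0.0286 of the same sum. Mir195b, Mir6342, Mir6353 and Mir6419 had no count in either library, which allows up to 2.34 and 2.31 CPM of reads that fit them alone. For Mir497, the partner of Mir195a, no row was given.

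Other genes with the seed of miR-351-5p had more counts together than Mir351, with both arms of each hairpin counted. Mir125a had 6705 and 6130 CPM, Mir125b-1 had 2498 and 2234 CPM and Mir125b-2 had 711 and 664 CPM. Their sum of 9471 ± 627 CPM stood against 1553 ± 401 CPM for Mir351. Both Mir125b genes give the same 5p arm, so their levels can be too low in the same way as those of Mir16. Mir6367 and Mir6394, which RefSeq lists with this seed, had no count.

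Between the libraries, all 9 genes had a log2 ratio of replicate 1 over replicate 2 above 0, as had 256 of the 398 genes with 10 counts or more and 134 of the 195 with 500 or more. The median was 0.15 for the 9 genes and 0.07 over the 398. In a two-sided exact binomial test against the library totals, adjusted by Benjamini-Hochberg over the 398 genes, 6 of the 9 were higher in replicate 1 at an adjusted p under 0.05 and 0 were lower. Over all tested genes 20.6% were called higher and 7.79% lower. Many counts make small shifts pass this test. Among the 195 genes with 500 counts or more, as all 9 had, 35.4% were called higher and 14.4% lower. The test compares these 2 libraries and covers counting error only. With TMM scaling the calls over all genes became 54 higher and 52 lower, against 82 and 31, and 4 of the 9 genes were called, all higher.

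Mir351 lay furthest apart, at a log2 ratio of 0.53, with a 95% interval from 0.44 to 0.62 (exact binomial test, adjusted p = 1.56e-29). Its absolute ratio lay at percentile 98.5 of the 195 genes with 500 counts or more. Mir450b followed with 0.34 (0.10 to 0.58; exact binomial test, adjusted p = 0.0223), Mir503 with 0.29 (0.15 to 0.43), Mir16-1 with 0.22 (0.16 to 0.28) and Mir15b with 0.15 (0.09 to 0.20). Mir322, with the most counts, passed at 0.038 (0.011 to 0.064; exact binomial test, adjusted p = 0.0207). With TMM scaling Mir450b (exact binomial test, adjusted p = 0.0886) and Mir322 did not pass, and Mir322 turned to -0.029. Mir15a at 0.041 (0.0038 to 0.077), Mir16-2 at 0.057 (-0.073 to 0.19) and Mir542 at 0.039 (-0.11 to 0.19) did not pass, and all 3 turned negative with TMM scaling. Within 1 cluster, Mir322 and Mir542 thus stood at 0.038 and 0.039 while Mir351 stood at 0.53.

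Over all genes the spread between the libraries was a coefficient of variation of 10.4% in edgeR, which for a single gene gives an SD of 0.21 in the log2 ratio. With the TMM scaling of that fit, the ratios of Mir351 (0.47), Mir450b (0.27) and Mir503 (0.23) lay above this SD, while Mir16-1 (0.15) and the other 5 genes lay below it. An edgeR exact test at this dispersion called 0 of the 9 genes, beside 2.01% of the 398, and gave 1 of the 9 an unadjusted p under 0.05 (Mir351, p = 0.0323, adjusted p = 0.803), beside 5.28% of the 398. The dispersion was estimated from these same 2 libraries, taken as replicates of 1 group. The differences under test thus also set the spread, so few calls were to be expected in advance. This test was added after the data were seen.

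**Figure D3:**
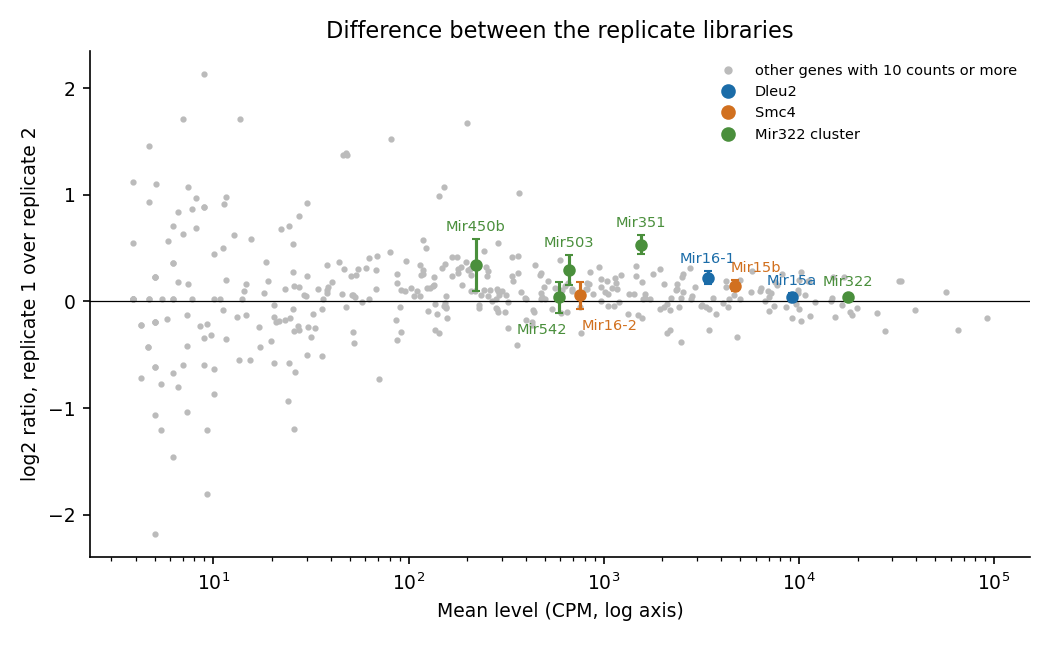
Log2 ratio of replicate 1 over replicate 2 against mean level in CPM (log axis) for the 9 genes, with 95% intervals of counting error as bars, and for the other genes with 10 counts or more (grey). Mir351 stands highest of the 9 genes at 0.53, while Mir322 at 0.038 and Mir542 at 0.039 lie near 0.

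Summed levels of miRNAs known from other tissues are given beside these ratios, with no test. Over all 1973 genes, 21.5% reached 2 CPM in each library. Of the Hox cluster miRNAs, known from hindbrain and trunk, 5 of 6 reached 2 CPM in each library, and they summed to 210 CPM (replicate 1) and 84.0 CPM (replicate 2), with Mir196a-1 at 0. Striated muscle miRNAs passed for 3 of 7, with 238 and 120 CPM, and Mir133b, Mir133a-1, Mir133a-2 and Mir1a-1 were at 0. Mir1a-1, Mir133a-1, Mir133a-2, Mir196a-1 and Mir124a-1 each have a sister gene with the same main arm, so these levels can be too low and the zeros cover reads of 1 gene alone. This is taken from what is known of them. Neither these genes nor the others with numbered copies, here or among the neural miRNAs below, were searched for shared arms. The others include Mir9-2, Mir9-3, Mir124a-2, Mir124a-3, Mir128-1, Mir199a-1 and Mir199a-2. Their levels, and the sums that hold them, can be too low in the same way. Erythroid miRNAs passed for all 3, with 606 and 371 CPM, of which Mir451a had 493 and 244 CPM, while Mir144 (88.2 and 91.7 CPM) and Mir486 (32 and 46 counts) were not higher in replicate 1. Smooth muscle and mesenchyme miRNAs passed for all 6, with 15019 and 13696 CPM, though Mir199b (310 and 410 CPM) was lower in replicate 1. The endothelial Mir126a had 34601 and 30323 CPM, and leukocyte miRNAs passed for all 4 with a row, with 788 and 804 CPM. The part of these cells in the ratios of Mir351, Mir503 and Mir450b was not tested. Neural miRNAs, used to check the tissue label, summed to 38128 and 32463 CPM. Of the 9 measured, 8 reached 2 CPM in each library, and Mir124a-1 was below at 1.56 ± 1.11 CPM. Mir92b at 17079 ± 1908 CPM and Mir149 at 14979 ± 1706 CPM made up most of the sum. For Mir9-1 no row was given, and the other Mir9 genes and the Mir124a genes can be too low. The check therefore rests chiefly on Mir92b and Mir149.

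The Mir17hg and Mcm7 clusters, known from dividing cells, served for comparison. The 6 hairpins of Mir17hg, the miR-17-92 transcript, summed to 107873 and 125325 CPM, against 40172 and 37651 CPM for the 9 genes, a ratio of 0.372 in replicate 1 and 0.300 in replicate 2. The 3 hairpins in Mcm7 summed to 38195 and 40306 CPM, which put the 9 genes above them in replicate 1 (1.05-fold) and below in replicate 2 (0.934-fold). The sum of the 9 genes was therefore not separable from Mcm7 with these libraries, and it lacks the miR-16-5p reads that fit both loci. The hairpins of Mir17hg and Mcm7 were not searched for arms shared with other genes. Their levels and sums can lack such reads too, and the ratios to them are of counted reads only. Within its cluster, Mir322 exceeded Mir450b by 6.33 ± 0.21 on the log2 scale, and Mir450-2, the lowest of all 7 hairpins, by 11.03 ± 0.63. The step from Mir17 to Mir19b-1 in Mir17hg was 10.47 ± 0.24, and from Mir93 to Mir25 in Mcm7 4.16 ± 0.14. Mir19b-1 has a sister gene with the same main arm, so its level can be too low and the Mir17hg step too large, as holds for Mir450-2. Which cluster has the wider span cannot be told from these counts. Both comparison sums were lower in replicate 1, with log2 ratios of -0.22 for Mir17hg and -0.08 for Mcm7, whereas Dleu2, Smc4 and the Mir322 cluster stood at 0.09, 0.13 and 0.09. The median over the 398 tested genes was 0.07, near the values of Dleu2 and the Mir322 cluster. These ratios are of CPM, and TMM scaling would lower each of them by 0.07. The hairpins of the comparison clusters did not all go the way of their sums, with Mir92-1 of Mir17hg at 0.26 and Mir25 of Mcm7 at 0.13. No test of these sums was made.

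**Figure D4:**
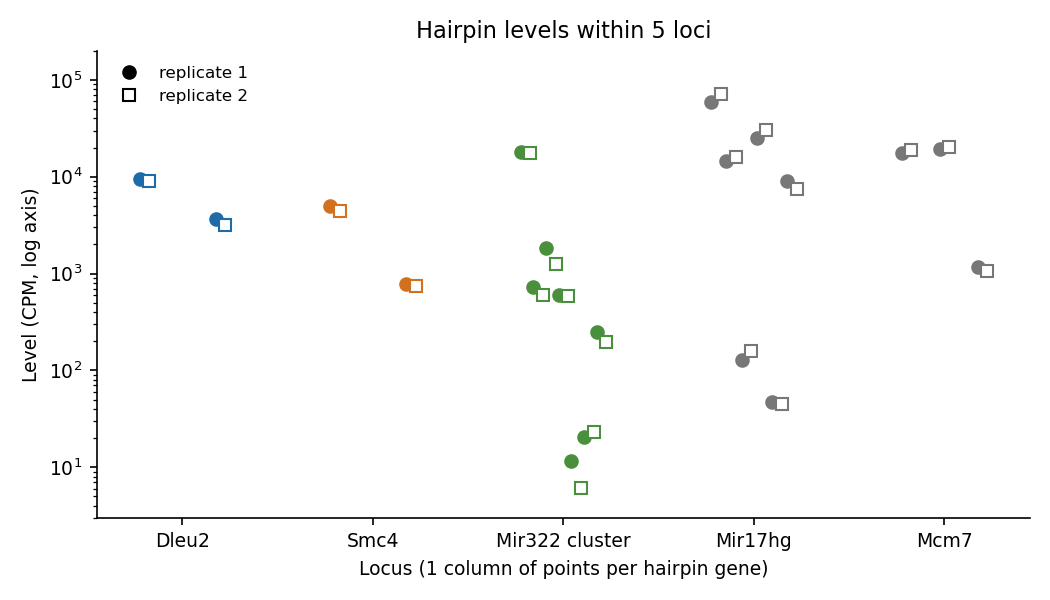
Level in CPM (log axis) of each hairpin of the Dleu2, Smc4 and Mir322 loci (coloured, Mir450-2 and Mir450-1 included) and of the Mir17hg and Mcm7 hairpins (grey), in replicate 1 (filled circles) and replicate 2 (open squares). All 7 hairpins of the Mir322 cluster are drawn, from Mir322 at 17764 CPM to Mir450-2 at 8.94 CPM, and the leading Mir17hg hairpin stands at 65099 ± 8463 CPM.

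None of the 9 genes had a count on the opposite strand in either library. The same held for 89.7% of the 195 genes with 500 counts or more.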

How the data were processed

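The authors deposited raw counts per miRNA gene for each library, in 3 columns (both strands, strand of the gene, opposite strand). Reads were aligned to mm10 and counted on GENCODE M4, per the file headers. The aligner and the counting tool have no name given in the sources used here. Leading rows that are no genes (4) were left out of totals. Sense counts totalled 1281201 (replicate 1) and 1297647 (replicate 2). Multimapping reads, 40.4% ± 1.82 of mapped reads (SD, n = 2), are in no gene count. Of 1973 identifiers, 1894 matched GENCODE M21, which gave symbols and positions.

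The genes and lists were chosen with earlier results of these data known. Named were the 9 genes, those sharing a seed or the cluster, and 2 comparison clusters. Genes of other tissues were named after their values were seen.

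No conditions were compared. Libraries were compared by an exact binomial test across all genes with 10 counts or more (Benjamini-Hochberg, 0.05, with 0.5 counts added to ratios). The test was tried on simulated data with counting error only, which cannot show how it behaves with further spread between libraries. Alternatives covered scaling, strand, filters, denominators, length and left-out libraries. Scripts used edgeR 4.0.16, DESeq2 1.42.0, R 4.3.3, Python 3.11.15, scipy 1.17.1.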

Additional observations from a re-analysis of the deposited data

Results flagged for a closer look

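Reads lay on the opposite strand of the Mir497b row, outside the sense counts used for every level. This row had 2 and 6 sense counts but 907 and 921 counts on the opposite strand, or 709 ± 1.28 CPM (SD, n = 2), above the limit of 3 counts. The hairpin of Mir497 (chromosome 11, 70234717 to 70234800, plus strand) lies inside Mir497b (70234692 to 70234816, minus strand), and its arm miR-497a-5p carries the AGCAGCA seed. Added to the sum of the genes with this seed, these counts gave 37069 CPM in place of 36360 CPM, a change below the SD. Whether they are reads of Mir497 was not tested.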

How the results depend on the processing

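Shares of counts depend on the denominator. Over all mapped reads, with multimapping reads, Dleu2 took 0.610%, Smc4 0.263%, the Mir322 cluster 1.00% and all 9 genes 1.88%. Without the most abundant gene of the libraries the shares were 1.39%, 0.601%, 2.29% and 4.29%. The 12 within-locus log2 ratios were the same with unstranded counts, since no opposite-strand count fell on these genes. Each library alone lies within the SD of 2 values by construction, which is no sign of stability. With a 2-fold minimum, 11 genes and 0 of the 9 were called different between the libraries, and with the edgeR exact test 8 and 0, against 113 and 6 without these conditions. Small ratios turned negative: Mir15a to -0.027 with TMM scaling, -0.0093 with DESeq2 size factors and -0.027 in edgeR, Mir322 to -0.029, -0.012 and -0.029, Mir542 to -0.028, -0.011 and -0.028, and Mir16-2 to -0.010 with TMM scaling and in edgeR. Mir15b, Mir16-1, Mir351 and Mir503 stayed called under every alternative of scaling, strand and filter, and lost the call with the 2-fold minimum and in edgeR. Leaving out a library leaves no comparison between libraries. No paired analysis was possible because the series has 1 group.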
